A study of Mus musculus with 6 samples.

Results

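The 43 genes described here belong to the interferon response and to antigen presentation by MHC class I, and their transcript levels were compared between N2A cells depleted of the long non-coding RNA Dali and control cells. A gene was followed through the probe set annotated to its symbol alone, and where it had several, through the one with the highest mean over the 6 arrays. This left 39 of the 43 genes, out of 19938 genes measured in the same way. Oas1g, Isg15 and Gbp2 shared their probe sets with other symbols and Ifi44 was not listed in the annotation used here, so these 4 genes were not analysed. By role, the measured genes were 4 of 4 cytosolic RNA sensors, 6 of 7 oligoadenylate synthetases, 5 of 5 transcription factors, 2 of 2 ligands, 16 of 19 effectors and 6 of 6 genes of MHC class I presentation.

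The pathway runs as a loop. Cytosolic sensors bind foreign or double-stranded RNA and signal through adaptors to Irf3 and Irf7, which switch on the gene for interferon beta. Secreted interferon binds its receptor and activates a complex that holds Stat2 and Irf9 and binds the interferon-stimulated response element in the promoters of a large set of antiviral effector genes and of the sensors and transcription factors themselves. Interferon gamma acts mainly through another promoter element, the gamma-activated site, and is known for raising the proteins that cut peptides, carry them into the endoplasmic reticulum and load them on MHC class I. Many of these genes keep a low level of expression without infection.

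N2A is a mouse neuroblastoma cell line used as a model of neuronal differentiation. Cells of the Dali knockdown group (3 arrays) were transiently transfected with 1.5 ug of a construct expressing a short hairpin RNA against Dali, and control cells (3 arrays) with the same amount of a non-targeting vector. Both groups therefore shared the transfection reagent and a hairpin vector, no clone was isolated, and RNA was taken 2.5 days later. An amount of 200 ng of RNA per sample was measured on Affymetrix Mouse Gene 1.0 ST arrays, and the values are log2 RMA values, so that a difference of 1 is a doubling. The samples are described as biological replicates numbered 1 to 3 without naming their cultures, and the p-values reflect how far these particular arrays scatter, which may be technical.

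Arrays correlated with each other at 0.990 to 0.997, and their medians lay between 7.86 and 7.93. There were 0 probe sets annotated to Dali, so the depletion itself was not checked here. Of the 12 markers of the neuroblastoma lineage 10 were measured, among them Hand2, a transcription factor of the sympathetic lineage, at 12.12 to 12.15 in knockdown and 12.17 to 12.32 in control arrays. The median difference of these 10 genes, knockdown minus control, was -0.15, beside 0.016 over the 19938 genes measured. Among the 10, 8 had a lower and 2 a higher mean in knockdown. Summed on the linear scale and returned to log2, these 10 genes reached 15.05 to 15.11 in knockdown and 15.14 to 15.24 in control arrays. The same sum was 10.12 to 10.24 in knockdown and 10.04 to 10.20 in control arrays for 10 of 10 macrophage and microglia markers, 9.38 to 9.68 in knockdown and 9.49 to 9.76 in control arrays for 7 of 8 lymphocyte markers, and 10.93 to 11.14 in knockdown and 11.05 to 11.53 in control arrays for 8 of 8 fibroblast markers. RMA values have no zero, and Ptprc, a surface protein of all white blood cells, lay at 6.50 to 6.57 in knockdown and 6.50 to 6.65 in control arrays. No marker was called with limma, 0 had an unadjusted p under 0.05, and with the replicate number as a block 1 was called, the fibroblast and pericyte receptor Pdgfrb at a difference of -0.61. The part of these levels in the results below was not tested, and in bulk RNA fewer cells of a type and less RNA per cell cannot be told apart.

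The promoters of the genes were read for both elements, through which interferons act on them. RefSeq promoter windows (GRCm38.p6, 250 bases before to 50 after the start) were at hand for 35 of the 43 genes. The core of the interferon-stimulated response element was searched as GAAA, any 2 bases, GAAA, and the gamma-activated site as TTC, any 3 bases, GAA, both on either strand. The first was found in 18 of 35 genes (51.4%), against 1079 of 27025 genes with a window (3.99%). The second was found in 9 of 35 genes (25.7%), against 2582 of those 27025 genes (9.55%). By role, the response element core stood in 3 of 3 sensors, 3 of 5 oligoadenylate synthetases, 1 of 5 transcription factors, 1 of 2 ligands, 9 of 15 effectors and 1 of 5 MHC class I presentation genes. In the 3 sensors the core lay after the start and not before it, at offsets of 2 bases in Ddx58, 32 in Ifih1 and 18 in Eif2ak2. The same held for the effector Ifitm3 (2 and 19). Stretches are shown for 6 genes whose values are given in full further down, each read 5′ to 3′ on the gene's own strand, with the matches in capitals and overlapping matches run together. The first 3 carry the response element core, the fourth carries overlapping cores and a gamma-activated site, and the last 2 carry a gamma-activated site alone.
Ifit1, chr19:34640765-34640833, plus strand: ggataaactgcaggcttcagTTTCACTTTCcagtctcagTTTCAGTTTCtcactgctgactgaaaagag
Rsad2, chr12:26456543-26456592, minus strand: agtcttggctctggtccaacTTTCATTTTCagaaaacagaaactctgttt
Cxcl10, chr5:92349073-92349122, minus strand: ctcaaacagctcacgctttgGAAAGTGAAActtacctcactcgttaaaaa
Oas1a, chr5:120907526-120907643, minus strand: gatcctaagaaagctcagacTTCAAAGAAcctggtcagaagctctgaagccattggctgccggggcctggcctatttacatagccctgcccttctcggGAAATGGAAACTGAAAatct
Isg20, chr7:78913331-78913379, plus strand: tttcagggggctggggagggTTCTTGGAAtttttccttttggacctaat
Irf1, chr11:53769904-53769952, plus strand: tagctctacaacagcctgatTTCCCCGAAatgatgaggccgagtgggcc
A match is a run of letters and not a measured binding site, and a window without one says only that these letters are not in it. Ifit3, which is also named below, holds the core at 2 places as Ifit1 does.

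Across the 39 genes, 32 had a lower and 7 a higher mean in knockdown than in control arrays. The median difference, knockdown minus control, was -0.19, beside 0.016 over the 19938 genes measured. It was -0.34 without knockdown replicate 2, -0.30 without control replicate 3, -0.11 without control replicate 2 and -0.078 without knockdown replicate 3. The largest differences were -0.69 for Isg20, an exonuclease that degrades RNA, and 0.60 for Ifit1, which binds viral RNA that lacks a host cap. A gene was called at a limma adjusted p under 0.1 together with a 1.3-fold or larger change up or down. In the comparison of the 3 knockdown with the 3 control arrays, 0 of the 32 genes that passed the variance filter were called lower and 0 higher, where 0.769% and 0.367% of all probe sets tested were called. Without the filter 10 of the 39 genes had an unadjusted limma p under 0.05, as had 2220 of the 19938 genes.

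The outcome differed when arrays of the same number were taken as pairs. With the replicate number as a block in limma, which removes what a knockdown and a control array of one number share, 10 genes fell and 1 rose, against 4.89% and 2.77% of all probe sets tested. The 10 were the sensors Ddx58 and Eif2ak2, the transcription factors Irf7 and Irf9, the effectors Isg20, Mx1, Mx2, Rsad2 and Usp18, and Tapbp of MHC class I presentation, and the gene that rose was Ifit1. All 10 were lower and Ifit1 was higher at each number, but the count changed when both arrays of a number were left out. Without both arrays of number 1, the block gave 9 lower and 1 higher, whereas without those of number 2 or of number 3 it gave 0 lower and 0 higher. Those fits leave fewer residual degrees of freedom than the full block, so they do not show which number carried the differences. Without the block, leaving out knockdown replicate 2 gave 6 genes called lower and leaving out control replicate 3 gave 4. Leaving out knockdown replicate 3 gave 1 called higher, and limma with a mean-variance trend and robust estimates gave 4 lower. For these settings and the blocks with arrays left out, the share of all probe sets called was not counted. Whether calls rose for these genes in particular therefore cannot be told.

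Taken by replicate number, the median difference of the 39 genes was -0.19, -0.14 and -0.29 for numbers 1, 2 and 3. There were 28 genes lower in knockdown for each of the 3 numbers, a pattern that 19.9% of all genes showed. Ifit1 and Ifit2 were higher for each number, which held for 21.5% of all genes. All 3 knockdown arrays lay below all 3 control arrays for 5 genes, Eif2ak2, Irf9, Irf1, Mx1 and Bst2, where 7.11% of all genes did so. All 3 lay above for 1 gene, Ifit2, where 8.47% of all genes did so.

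**Figure D1:**
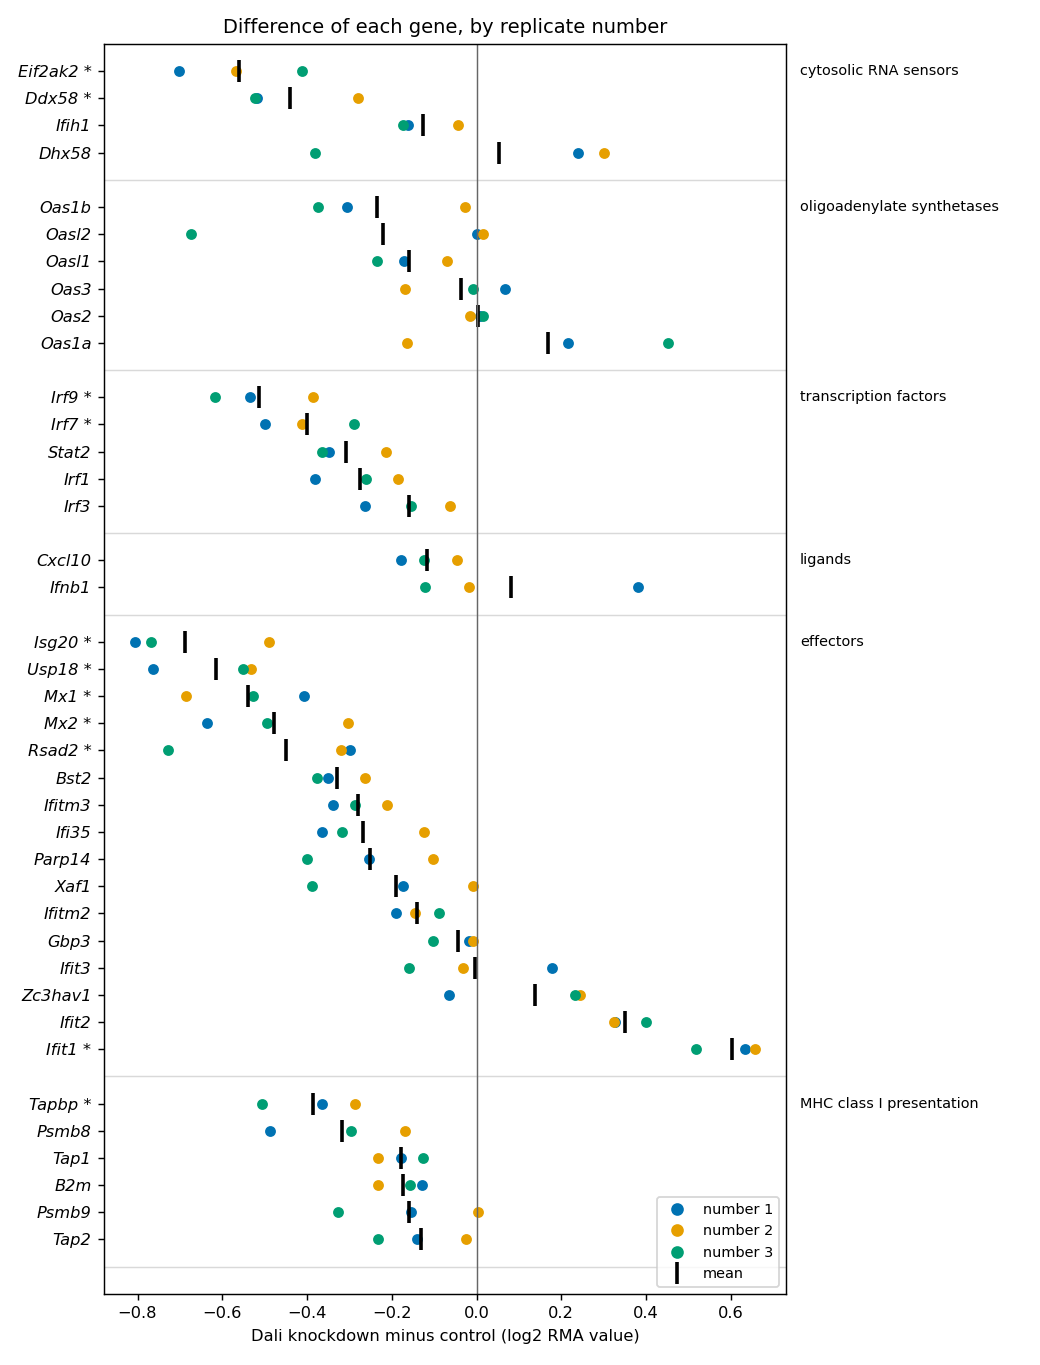
Knockdown minus control (log2 RMA value, horizontal axis) for the 39 measured genes, grouped by role down the page and sorted by mean within each role. Coloured points are the differences for replicate numbers 1, 2 and 3, the black bar is their mean, and an asterisk marks the 11 genes called with the replicate number as a block; Ifit1 and Ifit2 lie to the right of 0 at each number while 28 genes lie to the left.

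The cytosolic RNA sensors had a median difference of -0.28, with 3 of 4 genes lower. Their medians by number were -0.34, -0.16 and -0.40. Without knockdown replicate 3, but with control replicate 3 kept, the median was 0.017. Eif2ak2 encodes PKR, a kinase that stops translation when it binds double-stranded RNA. It had 8.57, 8.70 and 8.31 in knockdown replicates 1, 2 and 3, against 9.27, 9.27 and 8.73 in control replicates 1, 2 and 3. The groups did not overlap, and the difference of -0.56 (SE 0.17, 1.48-fold lower) had a limma adjusted p of 0.141, and of 0.011 with the block. Ddx58 encodes RIG-I, which recognises short RNA with a triphosphate end, and had 9.13, 9.63 and 7.98 in knockdown against 9.65, 9.91 and 8.50 in control replicates. Replicate 3 was far below the others in both groups, so the groups overlapped although each knockdown array lay below the control array of its number. Its difference of -0.44 had an SE of 0.34 and a limma adjusted p of 0.641, whereas with the block the SE was 0.09 and the adjusted p 0.020. The differences of Ddx58 by number were -0.52, -0.28 and -0.52. Without knockdown replicate 3, but with the low control replicate 3 kept, its difference was 0.026. Ifih1, which encodes MDA5, the sensor of long double-stranded RNA, differed by -0.13, and Dhx58, which encodes the related LGP2, by 0.05, with 0.24 and 0.30 for numbers 1 and 2 and -0.38 for number 3. Neither was called in either fit.

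Among the oligoadenylate synthetases, a family named for making the messenger that activates RNase L, none was called in either fit and the median difference was -0.10. Oas1a had 8.04, 7.74 and 8.06 in knockdown against 7.82, 7.91 and 7.60 in control replicates. Knockdown was higher for numbers 1 and 3 and lower for number 2, and the groups overlapped (difference 0.17, SE 0.14, limma adjusted p 0.697 and 0.397 with the block). Oasl1 had 9.41, 9.51 and 9.05 in knockdown against 9.58, 9.59 and 9.28 in control replicates. Knockdown was lower at each number, by less than the spread within a group (difference -0.16, SE 0.15, limma adjusted p 0.754 and 0.229 with the block). Oas1b and Oasl2 differed by -0.24 and -0.22, and for Oasl2 number 3 gave -0.67 while numbers 1 and 2 gave 0.00083 and 0.015. Oas2 and Oas3, both removed by the variance filter, differed by 0.0028 and -0.04. Oas1a and Oas1b are close copies on the genome, as are Oasl1 and Oasl2, and array probes may not fully separate them.

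All 5 transcription factors had a lower mean in knockdown and a lower value at each of the 3 numbers, with a median difference of -0.31. Irf9, the DNA-binding subunit of the complex that answers type I interferon, had 8.62, 9.04 and 8.62 in knockdown against 9.15, 9.42 and 9.24 in control replicates. The highest knockdown array lay below the lowest control array, and the difference of -0.51 (SE 0.15, 1.43-fold lower) had a limma adjusted p of 0.141, and of 0.013 with the block. Irf7, which amplifies interferon production, had 7.57, 8.05 and 7.41 in knockdown against 8.07, 8.46 and 7.70 in control replicates. Here knockdown replicate 2 overlapped the control range, and the difference of -0.40 (SE 0.19) had a limma adjusted p of 0.393, and of 0.023 with the block. Irf1, a factor induced by interferon gamma that acts on the MHC class I genes, had 9.08, 9.19 and 8.94 in knockdown against 9.46, 9.38 and 9.20 in control replicates. Its groups were separated by a narrow gap, the difference was -0.28 (SE 0.14), and the limma adjusted p was 0.427, and 0.066 with the block. A second probe set of Irf1 with a lower mean gave 0.0091, with 0.29, -0.12 and -0.14 for numbers 1, 2 and 3. Stat2, the partner of Irf9 in that complex, differed by -0.31, with a limma adjusted p of 0.537, and of 0.045 with the block but below the fold needed for a call. Irf3, which is held ready in resting cells, differed by -0.16.

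Neither ligand was called. Ifnb1, interferon beta itself, had 6.51, 6.25 and 6.14 in knockdown against 6.13, 6.27 and 6.26 in control replicates. Knockdown replicate 1 stood above the control range and knockdown replicates 2 and 3 did not (difference 0.08, SE 0.11, limma adjusted p 0.879). None of these values lay above the range of the white blood cell marker Ptprc (6.50 to 6.65), a level at which a change may not register. Cxcl10, a chemokine induced by both kinds of interferon, had 8.16, 8.60 and 7.38 in knockdown against 8.33, 8.64 and 7.50 in control replicates. The low value of replicate 3 was common to both groups and the knockdown arrays lay slightly below their control arrays at each number (difference -0.12, SE 0.27, limma adjusted p 0.938, and 0.382 with the block).

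**Figure D2:**
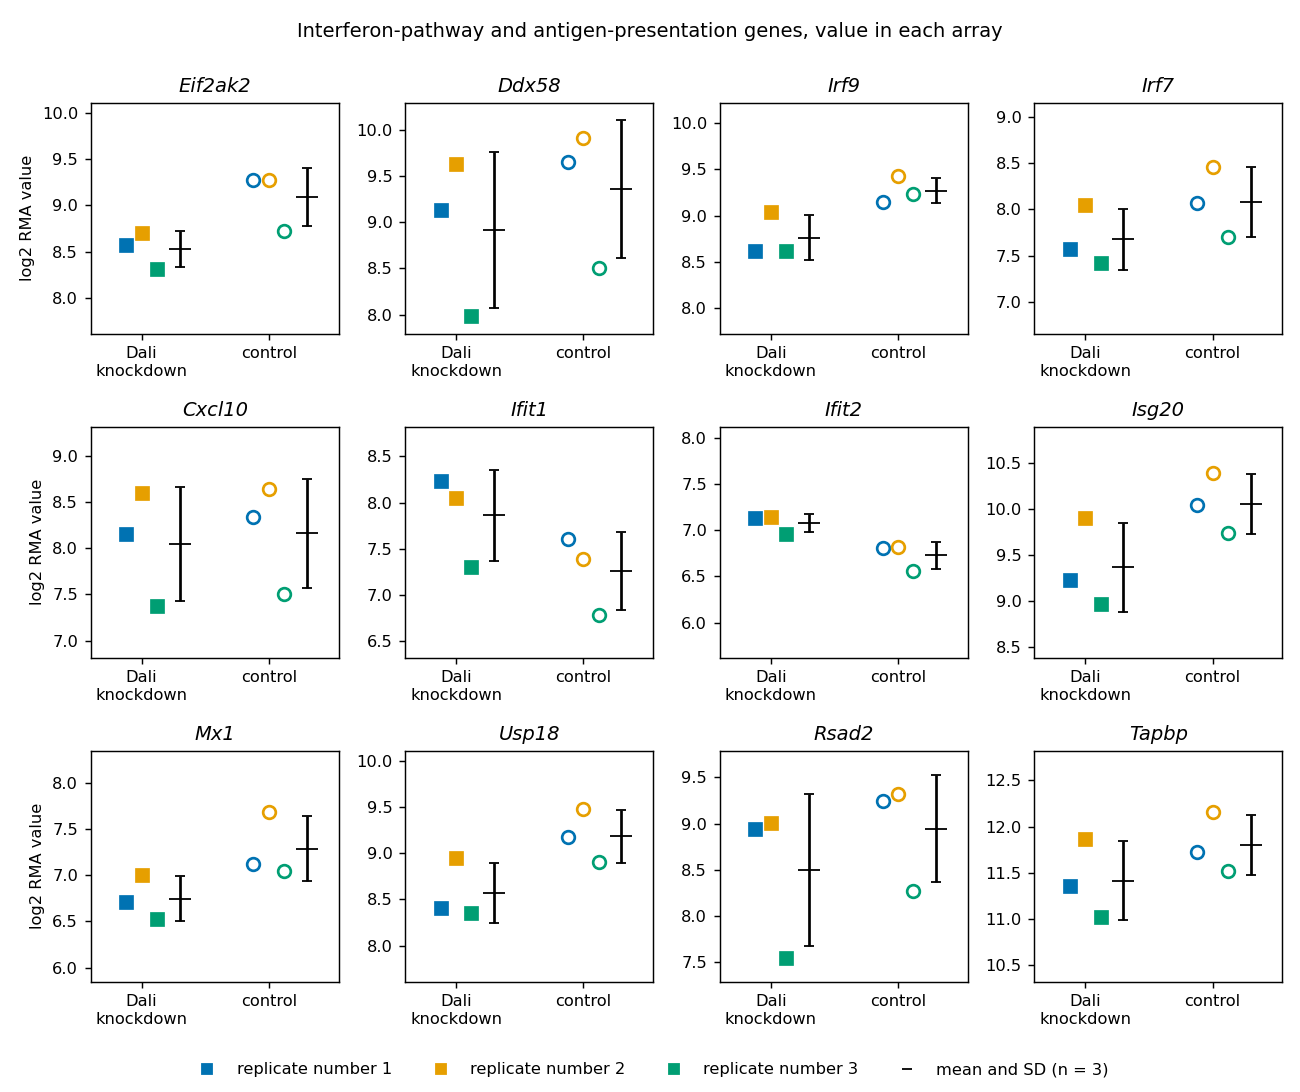
Log2 RMA value (vertical axis, with the same span of 2.5 in each panel) of 12 genes in the Dali knockdown arrays (filled squares, left) and the control arrays (open circles, right), coloured by replicate number, with the mean and SD of 3 arrays beside them. Ifit1 and Ifit2 are higher in knockdown at each number, the other 10 genes are lower at each number, and the replicate 3 arrays of Ddx58, Cxcl10 and Rsad2 are low in both groups.

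The 16 measured effectors had a median difference of -0.26. Of them 13 had a lower mean and 3 a higher one, and with the block 5 fell and 1 rose. Isg20 had 9.23, 9.90 and 8.97 in knockdown against 10.04, 10.39 and 9.74 in control replicates. Knockdown replicate 2 lay above control replicate 3, while the differences by number were -0.81, -0.49 and -0.77. The difference of -0.69 (SE 0.21, 1.61-fold lower) had a limma adjusted p of 0.151, and of 0.0089 with the block. Usp18, which removes Isg15 from proteins and dampens the interferon receptor, had 8.41, 8.94 and 8.35 in knockdown against 9.17, 9.48 and 8.90 in control replicates. Here too knockdown replicate 2 lay above control replicate 3, and the difference of -0.62 (SE 0.18) had a limma adjusted p of 0.131, and of 0.0091 with the block.

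Mx1 and Mx2 encode related GTPases that trap viral particles, and being close copies their probes may not be fully separate. Mx1 had 6.72, 7.003 and 6.52 in knockdown against 7.12, 7.69 and 7.05 in control replicates, with no overlap (difference -0.54, SE 0.18, limma adjusted p 0.184, and 0.012 with the block). Its knockdown replicate 3 lay within the range of Ptprc (6.50 to 6.65), a level at which a change may not register. Mx2 had 7.09, 7.60 and 6.89 in knockdown against 7.73, 7.91 and 7.38 in control replicates, where knockdown replicate 2 lay above control replicate 3 (difference -0.48, SE 0.18, limma adjusted p 0.270, and 0.018 with the block). Rsad2 encodes viperin, an enzyme that makes a chain-terminating nucleotide, and had 8.95, 9.001 and 7.55 in knockdown against 9.24, 9.32 and 8.27 in control replicates. Both replicate 3 arrays were well below the others. Its difference of -0.45 (SE 0.31) had a limma adjusted p of 0.583, and of 0.032 with the block. By number the differences were -0.30, -0.32 and -0.73. Without knockdown replicate 3, but with the low control replicate 3 kept, the difference was 0.027.

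The Ifit genes, whose proteins bind viral RNA and block its translation, held the one gene that rose with the block. Ifit1 had 8.23, 8.05 and 7.31 in knockdown against 7.60, 7.39 and 6.79 in control replicates. Knockdown replicate 3 lay below control replicates 1 and 2, while the differences by number were 0.63, 0.66 and 0.52. The mean difference of 0.60 (SE 0.22, 1.52-fold higher) had a limma adjusted p of 0.252, and of 0.0089 with the block. Ifit2 had 7.13, 7.14 and 6.96 in knockdown against 6.80, 6.82 and 6.56 in control replicates, with no overlap. It differed by 0.35 (SE 0.14, 1.28-fold higher), with a limma adjusted p of 0.290, and of 0.029 with the block but below the fold needed for a call. Its control replicate 3 lay within the range of Ptprc (6.50 to 6.65), a level at which a change may not register. Ifit3, whose promoter window holds 2 response element cores like that of Ifit1, differed by -0.0043, with 0.18, -0.03 and -0.16 by number. It had 6.44, 6.11 and 6.03 in knockdown against 6.26, 6.15 and 6.19 in control replicates. These values lay below those of the white blood cell marker Ptprc (6.50 to 6.65), a level at which a change may not register. These genes lie next to each other on chromosome 19 and resemble each other in sequence.

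Other effectors were called in neither fit. Bst2, or tetherin, which holds budding virus at the cell surface, had 9.59, 9.88 and 9.75 in knockdown against 9.95, 10.15 and 10.12 in control replicates, without overlap (difference -0.33, SE 0.14, limma adjusted p 0.328, and 0.035 with the block, 1.26-fold lower). Ifitm3 and Ifitm2, which hinder the fusion of virus with cell membranes, differed by -0.28 and -0.14. Ifi35 and Parp14, both induced by interferon, differed by -0.27 and -0.25, Xaf1, a protein tied to cell death, by -0.19, and Gbp3, a GTPase that acts on pathogens in vacuoles, by -0.04. Zc3hav1, or ZAP, which marks viral RNA rich in CG for decay, was the third effector with a higher mean and differed by 0.14.

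The 6 genes of MHC class I presentation all had a lower mean in knockdown, with differences between -0.39 and -0.13 and a median of -0.18. Tapbp encodes tapasin, which holds MHC class I at the peptide transporter during loading, and had 11.36, 11.87 and 11.02 in knockdown against 11.73, 12.15 and 11.52 in control replicates. Knockdown replicate 2 was inside the control range and each pair differed in the same direction (difference -0.39, SE 0.20, 1.31-fold lower, limma adjusted p 0.435, and 0.027 with the block). Psmb8, a catalytic subunit of the immunoproteasome, had 8.50, 8.83 and 8.53 in knockdown against 8.99, 9.004 and 8.83 in control replicates. The top knockdown array met the lowest control array, and the difference of -0.32 (SE 0.14) had a limma adjusted p of 0.357, and of 0.057 with the block. The transporter subunits Tap1 and Tap2 differed by -0.18 and -0.13, the light chain B2m by -0.17 and the second immunoproteasome subunit Psmb9 by -0.16, and none of these was called in either fit.

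For these genes, as for all genes, the replicate number held a larger median share of the spread than the group. The number has more levels than the group, and the shares are not corrected for this. The number accounted for a median of 64.3% of a gene's sum of squares over the 6 arrays, the group for 27.6% and the remainder for 3.16%, where the medians over all genes were 48.3%, 15.9% and 19.6%. The number held the larger share in 25 of the 39 genes, and in 14188 of the 19938. Cxcl10 had 1.37% for the group and 98.3% for the number, whereas Ifit2 and Irf9 had the highest shares for the group, 74.6% and 71.6%.

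**Figure D3:**
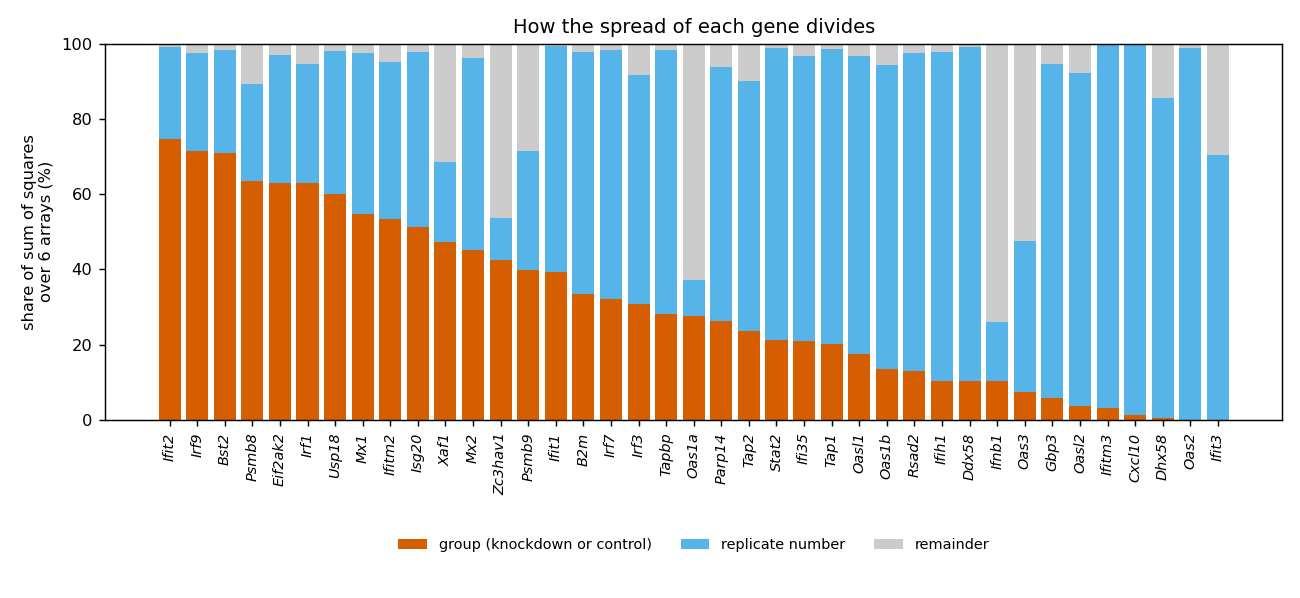
Share (%) of each gene's sum of squares over the 6 arrays held by the group (knockdown or control, red), by the replicate number (blue) and by the remainder (grey), for the 39 genes sorted by the group's share. The median shares are 27.6%, 64.3% and 3.16%, and Ifit2 has the highest share for the group (74.6%).

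The replicate 3 arrays were low for these genes in both groups. Replicate 3 minus the mean of replicates 1 and 2 had a median of -0.32 in knockdown and -0.28 in control arrays. It was below 0 in 36 of 39 genes in knockdown and in 33 of 39 in control arrays, against 9834 and 7821 of the 19938 genes. Among the low offsets were those of Ifitm3, at -1.55 in knockdown and -1.54 in control arrays, and of Ddx58, at -1.40 in knockdown and -1.27 in control arrays. Rsad2 had -1.43 in knockdown and -1.01 in control arrays, and Oasl2 -1.48 in knockdown and -0.80 in control arrays. Bst2 and B2m did not share this offset, with 0.01 and 0.18 in knockdown and 0.08 and 0.15 in control arrays. The labels do not say what a replicate number stands for, and its part in the differences between the groups was handled only through the block.

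**Figure D4:**
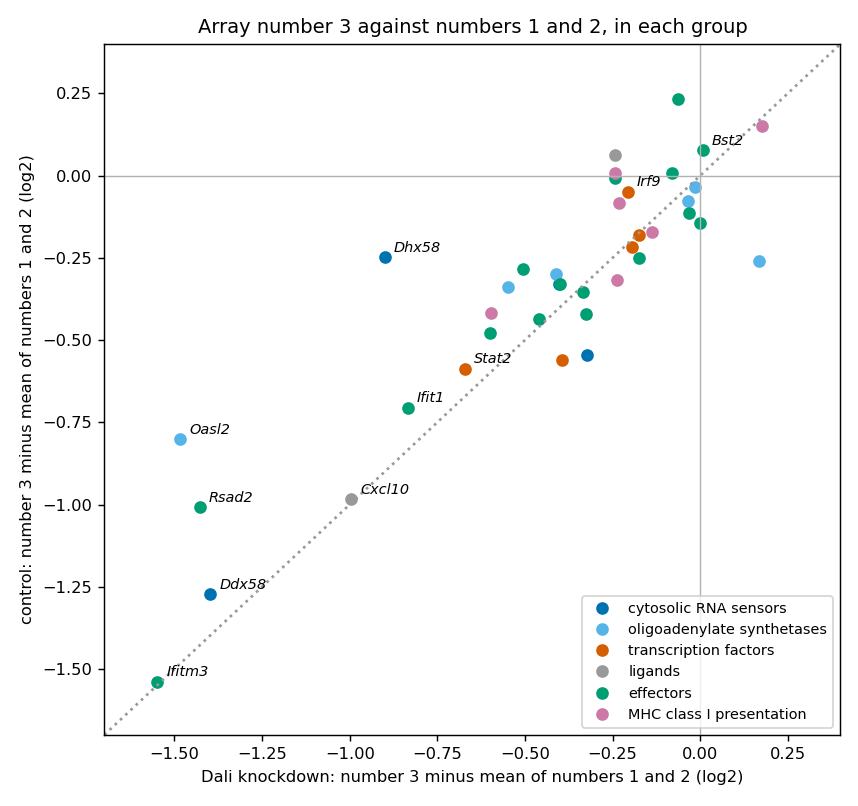
Replicate 3 minus the mean of replicates 1 and 2 (log2), in the Dali knockdown arrays (horizontal axis) and in the control arrays (vertical axis), 1 point per gene coloured by role, with a dotted line where both are equal. Most points lie below and left of 0, with Ifitm3, Ddx58, Rsad2, Oasl2 and Cxcl10 farthest out.

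The rest of the pathway was followed through 91 further genes, of which 79 were measured and 56 passed the filter. Their median difference was -0.05, with 52 lower and 27 higher means. Limma called 1 lower and 0 higher without the block, and 6 lower and 0 higher with it, where 0.769% and 4.89% of all probe sets tested were called lower and 0.367% and 2.77% higher. An unadjusted p under 0.05 was found for 16 of the 79 genes, and for 2220 of the 19938 genes measured. Without both arrays of number 2 or of number 3 the block called 0. The one gene was Cd274, which encodes PD-L1, the interferon-induced ligand that restrains T cells. It had 9.20, 9.36 and 9.10 in knockdown against 9.77, 9.73 and 9.84 in control replicates, a separation wider than the spread within either group. Cd274 fell by 0.56 (SE 0.14, 1.47-fold), with a limma adjusted p of 0.083, and of 0.013 with the block. Its call was lost when limma was run without knockdown replicate 1 (adjusted p 0.405), knockdown replicate 3 (0.173), control replicate 1 (0.202) or control replicate 2 (0.164), and likewise on all annotated probe sets (0.108) or with the filter over all rows (0.3999), while its difference stayed between -0.63 and -0.50 with single arrays left out.

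Among the other interferon-induced genes, 46 of 51 were measured and the median difference was -0.03. With the block 5 of them fell and 0 rose, and the 4 with the largest change were Ifi27, a mitochondrial protein, at -0.58, Cd274, the secreted glycoprotein Lgals3bp at -0.47 and the torsin ATPase Tor3a at -0.42. The fifth was the transcription factor Irf5 at -0.41. Of the 46 genes, 29 had a lower and 17 a higher mean. At each of the 3 numbers 16 were lower and 10 higher, as were 19.9% and 21.5% of all genes. All 3 knockdown arrays lay below all 3 control arrays for 9 of the 46 genes and above for 1, where 7.11% and 8.47% of all genes did so. The higher one was Ifi203 (difference 0.35, limma adjusted p 0.328, and 0.040 with the block), at a 1.27-fold change below the fold needed. Its values, 5.91 to 6.38 in knockdown and 5.71 to 5.89 in control arrays, lay below those of Ptprc (6.50 to 6.65). At that level a change may not register. Of the receptors, JAK kinases and their STAT and SOCS partners 12 of 13 were measured, with a median difference of -0.13. None was called without the block, although 3 had an unadjusted p under 0.05, and Stat3, the factor of the interleukin 6 family, fell with it (difference -0.41, limma adjusted p 0.247, and 0.020 with the block). Ifnar1, a chain of the type I interferon receptor, had 10.04, 10.35 and 10.24 in knockdown against 10.48, 10.49 and 10.76 in control replicates. Its groups did not overlap, and its difference of -0.37 had a limma adjusted p of 0.280, and of 0.046 with the block at a 1.29-fold change, below the fold needed.

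The adaptors, kinases and other nucleic acid sensors, 12 of 15 measured, had a median difference of 0.04, with 5 lower and 7 higher means. All 3 knockdown arrays lay above all 3 control arrays for 2 genes, Tlr9 (0.17) and Adar (0.12), and below for 2, Mavs and Ticam1. Over all genes 8.47% lay above and 7.11% below in this way. None was called in either fit, and 2 had an unadjusted limma p under 0.05, Mavs, the mitochondrial adaptor of RIG-I and MDA5, at -0.31 and Ticam1, the adaptor of Toll-like receptor signalling to Irf3, at -0.23. Of the other genes of MHC class I presentation 9 of 12 were measured, with a median difference of -0.05. None was called in either fit, and 1 had an unadjusted limma p under 0.05, H2-M3, a nonclassical MHC class I molecule that presents formylated peptides, at -0.36. Erap1, which trims peptides in the endoplasmic reticulum, differed by -0.17.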

How the data were processed

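By RMA, the authors corrected probe intensities for background, applied quantile normalisation between arrays and reduced probes to probe sets, which they deposited as log2 values (2.76 to 14.8). Versions of those tools are not given in the sources used here. Of 35556 rows, the annotation paired 21789 with 1 gene symbol and 1621 with several, and 12146 unlisted rows were left out. Of the 23410 annotated probe sets, the 11705 with an interquartile range above the median entered two-sided moderated tests in limma 3.58.1 under R 4.3.3 (lmFit, eBayes). The variance filter, the false discovery rate of 0.1 and the 1.3-fold limit follow the study's methods, and reading the filter as an interquartile range was a choice made here. Adjusted p-values are Benjamini-Hochberg values over the probe sets tested. The 7 genes that the filter removed (Oas2, Oas3, Ifnb1, Ifit3, Xaf1, Ifitm2 and Psmb9) came from an unfiltered fit. Of the 43 genes, values in full were given for those called with or without the block and, by role, for the 2 with the smallest p without the filter. Bst2 was added because its arrays did not overlap between groups, and Ifit3, which the rule did not select, was added beside Ifit1 and Ifit2. Of each list of further genes, up to 4 called genes or else the 2 with the smallest p were named, with array values for Cd274 and Ifnar1. The fifth called gene, Irf5, and the higher genes Ifi203, Tlr9 and Adar were added after their values were seen. Members, roles, the 91 further genes and the markers were chosen with earlier results of these data known. The scripts were tested on simulated data. Grouping and replicate numbers came from the sample labels, and the number of arrays limits the precision.

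Arrays of the same number deviated together from their group means, with correlations of 0.14, 0.65 and 0.65 over all annotated probe sets for numbers 1, 2 and 3. Control replicate 1 correlated more with knockdown replicate 2 (0.20). The numbers were treated as pairs because each correlation exceeded 0.1. The 0.20 between arrays of unlike number also passed this limit, so it does not settle the pairing of number 1. The block is given beside results where it changed the call. The block leaves 2 residual degrees of freedom in place of 4. The alternatives were the block, no filter, a filter over all rows, a filter on the mean, centring on the median, the mean of a gene's probe sets, a trend with robust estimates, and leaving out each array.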

Additional observations from a re-analysis of the deposited data

How the results depend on the processing

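With the replicate number as a block, 10 genes were called lower and 1 higher, where 0 and 0 were called without it. The block without both arrays of number 1, chosen after seeing the data, gave 9 lower and 1 higher, and without those of number 2 or number 3 gave 0 and 0. A trend with robust estimates gave 4 lower. Leaving out single arrays gave 0 to 6 genes lower and 0 to 1 higher. The 91 further genes were examined in the same ways, chosen after seeing the data. Of them 6 were called lower with the block (5 without number 1, 0 without number 2 or number 3), 3 with a trend, 0 with no filter or a filter over all rows, and 0 to 2 with single arrays left out, against 1 otherwise. The cause of these shifts was not tested, and outside the full block the share of all probe sets called in them was not counted. For the 39 genes, no filter, the other filters, centring and the mean of probe sets gave 0 lower and 0 higher.

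Over single arrays left out, the median difference ranged from -0.34 to -0.078 for the 39 genes, from -0.49 to 0.017 for the sensors, from -0.16 to -0.0064 for the oligoadenylate synthetases, from -0.50 to -0.21 for the transcription factors, from -0.17 to 0.19 for the ligands, from -0.40 to -0.11 for the effectors and from -0.26 to -0.14 for MHC class I presentation. The median of the sensors was above 0 without knockdown replicate 3, and that of the ligands, -0.018 in all arrays, without knockdown replicate 3, control replicate 1 or control replicate 2 and with centring (0.012). Centring and the mean of probe sets moved these medians by less than the spread between replicates.

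Of the differences of single genes, 460 values kept their direction and side of the threshold, 26 values of 11 genes passed it newly, and 21 values of 12 genes changed sign. Centring turned Ifit3 to 0.026. The others changed sign when 1 array was left out and the array of the same number in the other group was kept. The ranges were from -0.86 to 0.026 for Ddx58, -0.24 to 0.0079 for Ifih1, -0.26 to 0.35 for Dhx58, -0.041 to 0.043 for Oas2, -0.093 to 0.0078 for Oas3, -0.52 to 0.28 for Oasl2, -0.025 to 0.16 for Ifnb1, -0.44 to 0.22 for Cxcl10, -0.13 to 0.076 for Ifit3, -0.79 to 0.027 for Rsad2, -0.11 to 0.0071 for Gbp3 and -0.79 to 0.24 for Ifitm3. The 10 genes that fell with the block, other than Ddx58 and Rsad2, stayed lower with each single array left out, and Ifit1 stayed higher.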
